A study of Mus musculus with 9 samples.

Results

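The genes described here encode the proteins of the cytosolic ribosome in BV2 cells, an immortalized mouse microglial line. They were chosen by name, as genes called Rpl or Rps with a number, with Rpsa, Rplp0, Rplp1 and Rplp2 added and pseudogene names and the Rps6 kinases left out. A total of 88 of the 40993 genes in the expression table carry such a name, and the 80 that average 1 FPKM or more across the 9 libraries are the members. By name, 48 of these belong to the large (60S) and 32 to the small (40S) subunit, the latter with 2 processed pseudogenes, Rps3a2 and Rps3a3, among 11161 genes that passed the same filter. FPKM counts fragments relative to transcript length and to the mapped fragments of a library. Levels of different genes can thus be set side by side per length, as far as their reads are not shared between loci.

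The study asked how MNPs@SiO2(RITC), cobalt ferrite particles in a silica shell with rhodamine B isothiocyanate, change the transcriptome of microglia. The 3 groups were non-treated control cells, cells treated for 12 h with 10 µg/ml and cells treated for 12 h with 100 µg/ml MNPs@SiO2(RITC), which the labels write as 0.01 and 0.1 µg/µl, with 3 libraries each. All groups are BV2 cells with no other label, and a single immortalized line stands for microglia throughout. Nothing states that libraries came from separate cultures, so p-values measure the spread between these libraries.

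A ribosome carries a single copy of nearly every ribosomal protein, while the acidic stalk proteins P1 and P2 are present as dimers around P0. Cells match the supply of these proteins to that of ribosomal RNA, and their mRNAs are short, abundant and mostly begin with a run of pyrimidines, the TOP motif, through which mTORC1 controls their translation. Some of the proteins have roles outside the ribosome. RPL11 and RPL5 bind MDM2 when ribosome assembly is disturbed, which stabilizes p53. Ribosomal protein mRNAs have also left many processed copies in the mouse genome, whose sequences resemble the parent mRNA closely.

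Of 14 microglia markers, 11 averaged 1 FPKM or more, led by Cd68 at 413 FPKM, while Cx3cr1, P2ry12 and Fcrls stayed below it. The markers summed to 1666, 1617 and 1479 FPKM in the control libraries, 1508, 1479 and 1562 at 10 µg/ml, and 1490, 1347 and 1336 at 100 µg/ml, and the part of this difference in the results for ribosomal protein genes was not tested. No marker of astrocytes, neurons, oligodendrocytes, fibroblasts, or T and B cells reached a mean of 1 FPKM, and the highest sum of such a list in any library was 1.44 FPKM, for oligodendrocytes. The defining genes Snap25 and Rbfox3 of neurons, Mog of oligodendrocytes, Aqp4 of astrocytes, Col1a2 of fibroblasts and Cd3e of T cells were listed at 0 in every library.

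Before the treatments are compared, the libraries themselves differ in a way that touches nearly all members. The members summed to 18503, 16855 and 15553 FPKM in the control libraries, to 15140, 15085 and 16537 at 10 µg/ml, and to 18732, 14089 and 14611 at 100 µg/ml. Control replicate 1 and replicate 1 at 100 µg/ml were the highest of all 9, and the 3 groups overlapped. The group means were 16970 ± 1478 (SD, n = 3), 15588 ± 823 (SD, n = 3) and 15811 ± 2543 (SD, n = 3), and they differed by less than the spread within the 100 µg/ml group. As a share of the summed FPKM of a library, the members took 2.96% to 3.58%.

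The members moved together from library to library. As the median over members of log2(FPKM + 1) minus the mean of the gene over all libraries, the controls lay at 0.17, 0.05 and -0.07, the 10 µg/ml libraries at -0.08, -0.09 and 0.06, and the 100 µg/ml libraries at 0.24, -0.18 and -0.13. In replicate 1 at 100 µg/ml, 76 of the 80 members were above their own mean, and in replicate 2 of the same group 11 were. The 1410 tested genes that are not members but have transcripts under 1000 nt moved alike, with the same libraries highest and lowest, at 0.12, 0.03 and -0.04, then -0.06, -0.08 and 0.03, then 0.17, -0.11 and -0.09. The 4606 other genes with transcripts of at least 3000 nt went the opposite way in the replicates 1 of these groups, at -0.02 in control and -0.11 at 100 µg/ml. Members have a median transcript length of 783.5 nt, against 2612.5 nt for all genes tested. After a loess correction of each library for transcript length and GC content, the medians of the members shrank to 0.08, 0.00 and -0.03 in control, -0.02, -0.03 and 0.02 at 10 µg/ml, and 0.05, -0.07 and -0.01 at 100 µg/ml. The part of this length trend in each single result was not tested. In bulk RNA a lower level can mean fewer transcripts per cell or fewer cells that hold them, which cannot be told apart.

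**Figure D1:**
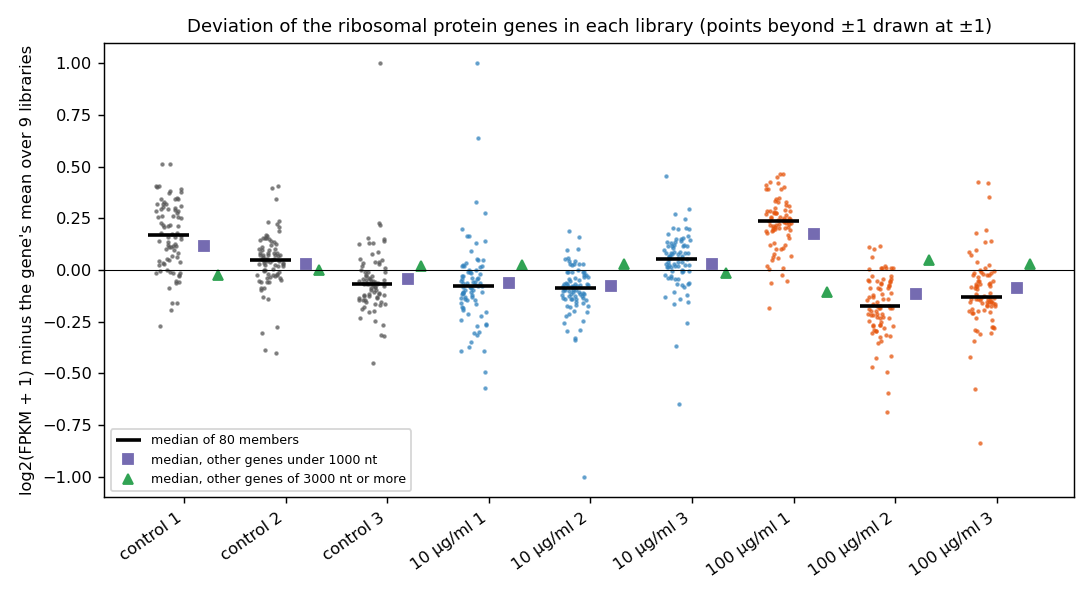
Deviation of each ribosomal protein gene from its own mean over the 9 libraries, on log2(FPKM + 1), by library. Points are genes, black bars the median of the 80 members, squares the median of other genes with short transcripts and triangles that of other genes with long transcripts. Replicate 1 of control and of 100 µg/ml sit highest, at medians of 0.17 and 0.24, and the short transcripts outside the ribosome follow.

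Within the ribosome, FPKM levels were far from equal. Mean FPKM over the 9 libraries ran from 2.0 for Rpl17, a protein of the exit tunnel rim, to 1428 for Rplp0, the stalk base protein P0, a range of 714-fold. The median was 90.3 FPKM for all members, 72.1 for the large and 158 for the small subunit, against 17.3 for all genes tested. The 6 highest were Rplp0, Rpl8 (1228 FPKM), Rps9 (808 FPKM), Rps14 (673 FPKM), Rpl32 (666 FPKM) and Rpl4 (638 FPKM). The 6 lowest were Rpl17, Rps3a3 (2.25 FPKM), Rpl22l1 (3.38 FPKM), Rps13 (5.39 FPKM), Rpl37 (7.84 FPKM) and Rps6 (8.51 FPKM). RPS6, the last of these, is the substrate of S6 kinase that is widely used as a readout of mTORC1. The order hardly changed between libraries, with Spearman correlations across the 80 genes of 0.966 to 0.997. This is a description over genes from the same pipeline. All of these levels leave out the near-identical copies described below. With copies added, Rpl17 was at 26.0, Rpl22l1 at 34.0, Rps13 at 43.4 and Rps6 at 261 FPKM. Rps3a3, itself a processed pseudogene, and Rpl37 had no copy under the rule given below, so their levels could not change. They still share 31.6% and 21.5% of their 100-base stretches with other genes. At the other end, Rps28 (1509 FPKM) and Rps27 (1496 FPKM) were then above Rplp0. The sum for Rps28 is mostly that of its shorter copies Gm10443 (726 FPKM) and Gm10263 (588 FPKM). Such a sum over loci of unlike length is not the level per length of a single transcript.

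The 2 highest genes without copies were Rplp0 and Rpl8. Rplp0 was at 1538, 1528 and 1359 FPKM in control and 1395, 1414 and 1364 FPKM at 10 µg/ml. At 100 µg/ml it was at 1588, 1302 and 1361 FPKM. Rpl8, a protein near the peptidyl transferase centre, was at 1355, 1260 and 1214 FPKM, 1216, 1171 and 1243 FPKM, and 1482, 1031 and 1085 FPKM in the same order. Rplp0 was above Rpl8 in every library, while for each gene the 3 treatment groups overlapped. The other stalk genes were lower, with Rplp1 at 411 FPKM and Rplp2 at 40.4 FPKM on average, although P1 and P2 are paired in the ribosome.

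Genes of ubiquitin or ubiquitin-like fusions were in the middle of the range. Rps27a, which encodes ubiquitin joined to RPS27A, averaged 79.9 FPKM. Outside the naming rule, Fau (a ubiquitin-like protein joined to RPS30) averaged 73.4 FPKM. Rpsa, the laminin receptor precursor of the small subunit, averaged 122 FPKM, and Rpl41, which encodes the smallest ribosomal protein, 168 FPKM.

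Paralogs differed widely from their parent genes. Rpl22 averaged 613 FPKM and its paralog Rpl22l1 3.38 FPKM. Rpl7 averaged 357 FPKM and Rpl7l1 67.9 FPKM. The reverse held for Rpl36a, at 76.2 FPKM, and Rpl36al, at 265 FPKM. Rps27l, which is known as a p53 target, averaged 288 FPKM. The parent genes of paralogs below the filter, Rpl3 (115 FPKM), Rpl10 (96.6 FPKM), Rpl39 (41.8 FPKM) and Rps4x (300 FPKM), were all well expressed. Rps3a1 averaged 53.5 FPKM and its processed copies Rps3a2 and Rps3a3, which the naming rule takes as members, 74.9 and 2.25 FPKM. The other 78 members are annotated as protein coding. Of the 8 matching names below the filter, Rps27, Rps4l, Rps12l2, Rpl10l and Rpl39l were listed at 0 in every library. Rpl10l and Rpl39l are known from testis, and Rps4l is annotated as a processed pseudogene. Rpl3l, a paralog known from muscle, was listed at 0 in 2 of the 9 libraries, at most at 0.426 FPKM elsewhere. Rps12 reached 0.485 FPKM at most and was listed at 0 in 5 libraries, and Rps12l1 was listed at 0 in 7. A value of 0 in this table need not mean an absent mRNA, since Rps27 and Rps12 encode core proteins of the small subunit.

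**Figure D2:**
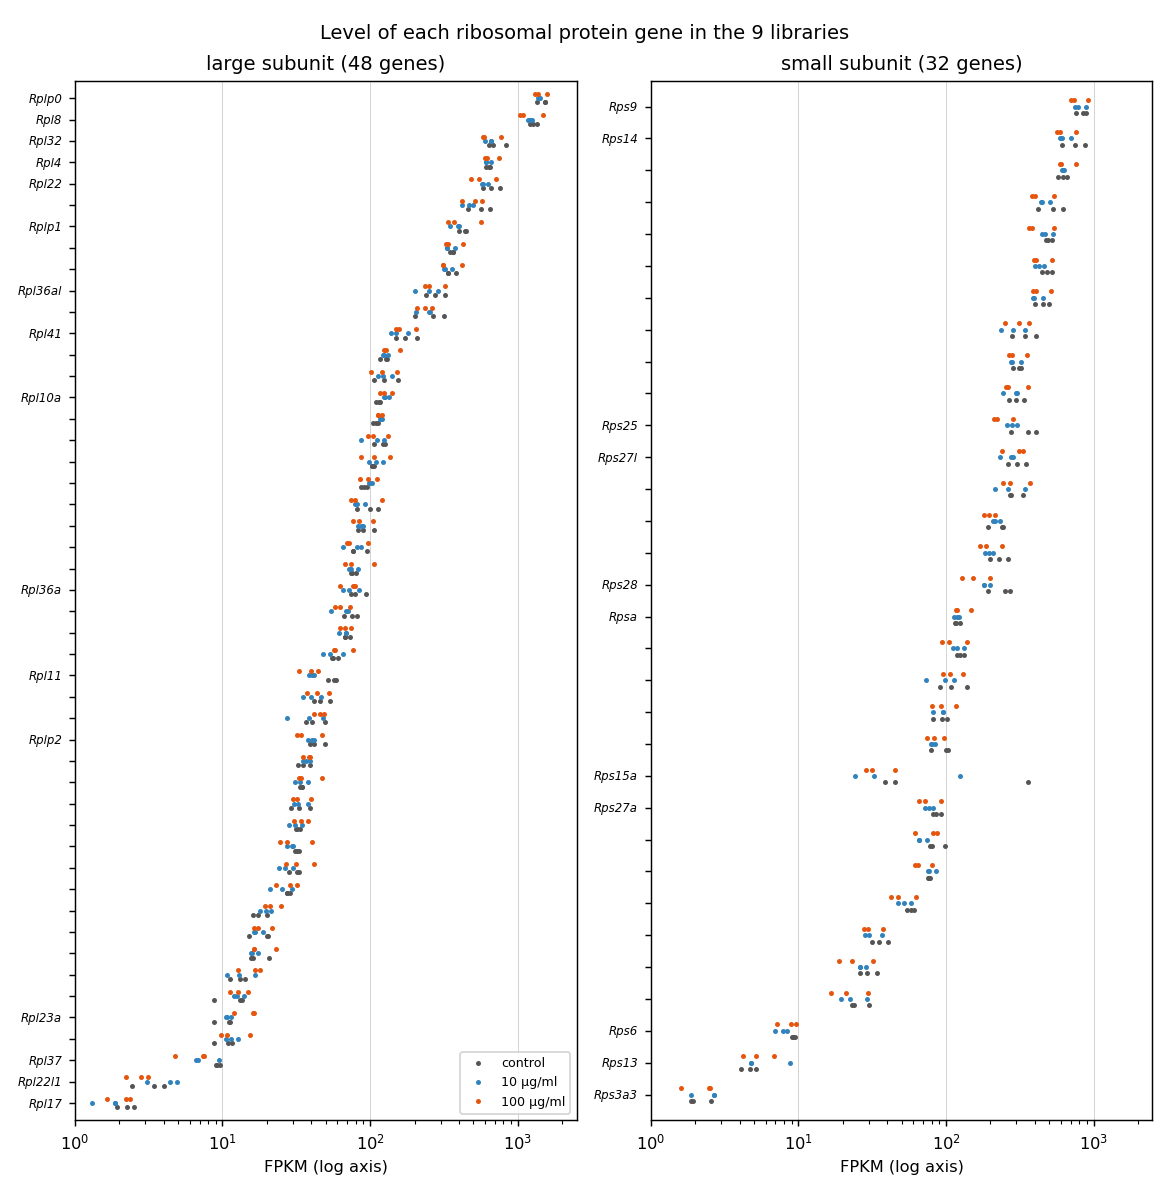
FPKM of each ribosomal protein gene in the 9 libraries, on a log axis, with genes of the large subunit on the left and of the small subunit on the right, in order of their mean, with names for genes described in the text. Points are single libraries, coloured by group. Levels run from 2.0 FPKM for Rpl17 to 1428 FPKM for Rplp0, and Rps15a has 1 control library at 357 FPKM, far from its others.

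Reads from these genes are often not unique to them. Transcripts of 79 of the 80 members share at least 1 stretch of 50 bases with a transcript of another annotated gene. For 27 members over 50% of all 100-base stretches are shared, for 34 members 20% to 50%, and for 19 members under 20%. The median level was 79.9 FPKM, 73.3 FPKM and 344 FPKM in these 3 sets. Across the 80 genes, which come from the same libraries, the Spearman correlation of mean FPKM with the shared percentage was -0.40. The authors' pipeline divides reads that map to several places between the loci.

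The table lists such loci as genes of their own. When a transcript that shares at least 25% of the 100-base stretches of a ribosomal protein gene is called its copy, 48 of the named genes have 98 copies, of which 29 copies average over 100 FPKM. For 30 genes the copies together exceed the gene itself. Rpl23a averaged 12.0 FPKM and its copies 589 FPKM, Rps6 8.51 FPKM and its copies 253 FPKM, and Rpl19 11.3 FPKM and its copies 404 FPKM. Rps12 averaged 0.133 FPKM and its copy Rps12-ps3 234 FPKM. Rps27, listed at 0, has the copy Rps27rt at 1496 FPKM. When copies are added to their genes, the median level was 263 FPKM, and 2 genes in place of 6 members were under 10 FPKM. These 2, Rps3a3 and Rpl37, had no copy under this rule.

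Rpl11 and Gm10288 are described here because Rpl11 is the member that passed the test below. Rpl11 (ENSMUSG00000059291, chr4:136028265-136053428 of GRCm38, minus strand, 6 exons in GENCODE M21) encodes the MDM2-binding protein of the central protuberance. Gm10288 (ENSMUSG00000070343, chr3:146838811-146839347, a processed pseudogene of a single exon) is identical to it at 536 of 537 aligned bases.

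**Figure D3:**
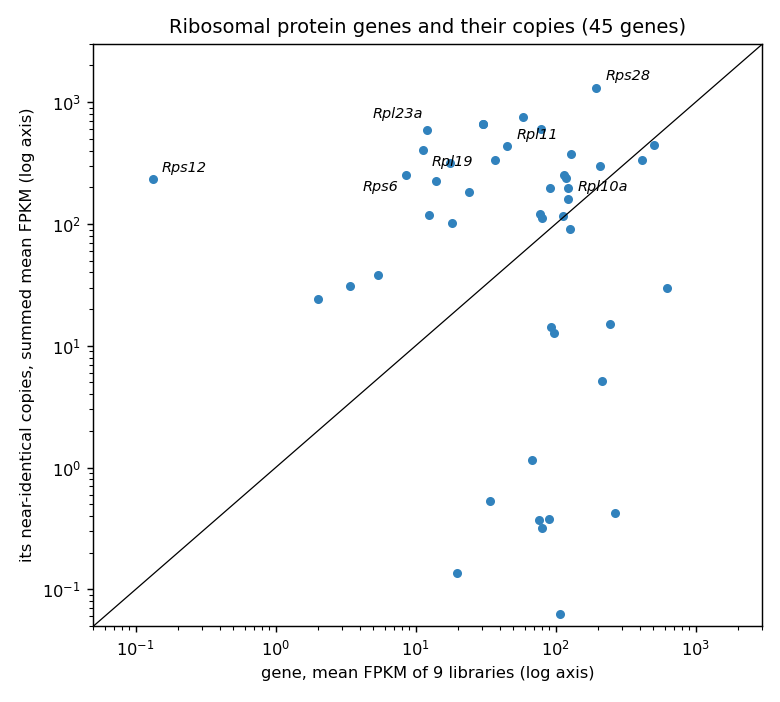
Mean FPKM of ribosomal protein genes against the summed mean FPKM of their near-identical copies, both on log axes, for the 45 genes that are above 0 and whose copies reach 0.05 FPKM. The line marks equal levels. A total of 29 genes lie above it, with Rps12, Rpl23a, Rpl19 and Rps6 far from it.

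Between 100 µg/ml MNPs@SiO2(RITC)-treated and non-treated control cells, 1 of the 80 members, Rpl11, was lower with an adjusted p under 0.05 in limma on log2(FPKM + 1). Across all genes tested, 2.11% passed in either direction, 0.708% higher and 1.41% lower. At an unadjusted p under 0.05 there were 6 members, Rpl21 and Rpl23a higher and Rpl11, Rpl37, Rps25 and Rps28 lower, where the background is 19.4%, with 9.67% higher and 9.69% lower. Libraries did not overlap between the groups for 2 members that were higher (Rpl10a and Rpl23a, background 12.5%) and for 2 that were lower (Rpl11 and Rpl37, background 11.4%). These shares of the members are below the background, a difference that was not tested. The median coefficient of variation within groups was 14.1% for members, 16.5% for the other short transcripts and 8.97% for all genes tested, and its part in these shares was not tested. The median log2 fold change of the members was -0.06, against -0.00 for all genes tested and -0.04 for the other short transcripts.

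Rpl11 was at 56.8, 59.2 and 52.3 FPKM in control cells, 38.5, 40.3 and 42.0 FPKM at 10 µg/ml, and 44.7, 33.1 and 40.0 FPKM at 100 µg/ml. All 6 treated libraries were below all 3 control libraries, and the 2 treated groups overlapped. Relative to control, the log2 fold change in the 100 µg/ml group was -0.51 (SE 0.10, adjusted p = 0.0394 from limma). Its copy Gm10288 was at 549, 504 and 456 FPKM in control cells, 393, 437 and 487 FPKM at 10 µg/ml, and 439, 320 and 305 FPKM at 100 µg/ml. The 100 µg/ml libraries of this copy all lay below the control libraries, with a log2 fold change of -0.52 (SE 0.14, adjusted p = 0.0987 from limma). Reads that match both loci are divided between them by the pipeline, so the copy is not an independent observation. The call for Rpl11 depends on the setting. It was lost with no filter on low values (adjusted p = 0.0793 from limma), without the trend of eBayes (adjusted p = 0.0517 from limma) and with only the 6 libraries compared (adjusted p = 0.135 from limma). Without replicate 1 at 100 µg/ml its adjusted p from limma was 0.0150, but it was over the threshold without any other single library. It was 0.142, 0.164 and 0.0781 without control replicate 1, 2 or 3, then 0.0719, 0.0761 and 0.0699 without replicate 1, 2 or 3 of the 10 µg/ml group, which shares in the estimate of the spread, and 0.0572 and 0.105 without replicate 2 or 3 at 100 µg/ml (adjusted p from limma). With its copies added, an alternative chosen after seeing the data, the log2 fold change was -0.52 and the adjusted p 0.0878 from limma.

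**Figure D4:**
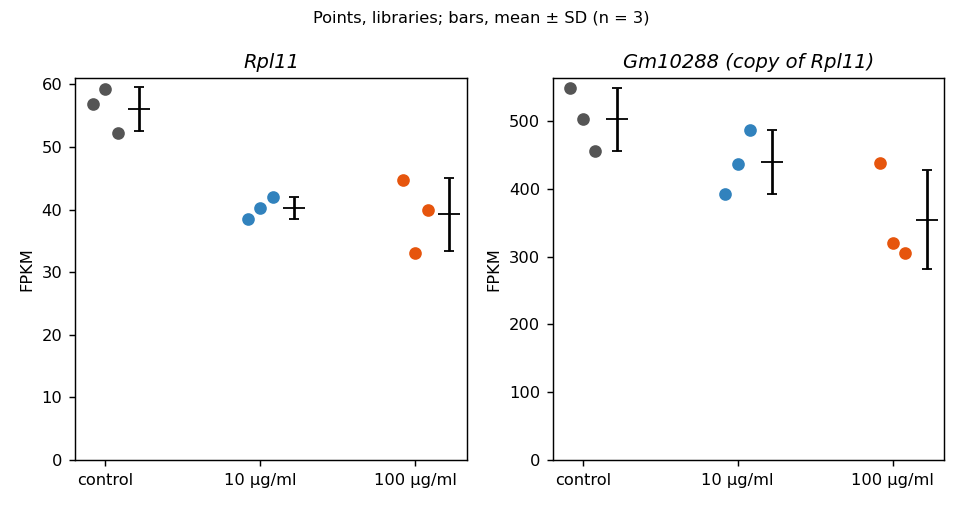
FPKM of Rpl11 and of its processed copy Gm10288 in each library, with the mean and SD of each group (n = 3) beside the points and axes that start at 0. Rpl11 is at most at 42.0 FPKM at 10 µg/ml and at 44.7 FPKM at 100 µg/ml, against at least 52.3 FPKM in control, while the copy overlaps control at 10 µg/ml.

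Rps28, a small protein at the mRNA exit, was at 272, 251 and 192 FPKM in control, 180, 182 and 200 FPKM at 10 µg/ml, and 197, 153 and 128 FPKM at 100 µg/ml. Its highest value at 100 µg/ml was above the lowest control, and its log2 fold change was -0.58 (SE 0.17, adjusted p = 0.109 from limma). Without replicate 1 at 100 µg/ml the adjusted p from limma was 0.0358. Rps25, which is known for its part in initiation at internal ribosome entry sites, was at 404, 360 and 274 FPKM in control, 302, 281 and 258 FPKM at 10 µg/ml, and 285, 210 and 223 FPKM at 100 µg/ml. Here too the groups overlapped by a single library, with a log2 fold change of -0.52 (SE 0.16, adjusted p = 0.118 from limma). Rpl37, a zinc-binding protein of the large subunit, was at 9.59, 9.15 and 9.10 FPKM in control, 9.54, 6.67 and 6.81 FPKM at 10 µg/ml, and 7.54, 4.76 and 7.38 FPKM at 100 µg/ml. Its 100 µg/ml libraries all lay below control, with a log2 fold change of -0.47 (SE 0.17, adjusted p = 0.181 from limma). Without replicate 2 at 100 µg/ml it was -0.28.

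On the other side, Rpl23a, a docking site for nascent chain factors at the tunnel exit, was at 11.3, 8.80 and 11 FPKM in control, 11.5, 10.7 and 10.7 FPKM at 10 µg/ml, and 16.3, 11.9 and 16.2 FPKM at 100 µg/ml. All 100 µg/ml libraries were above all others, with a log2 fold change of 0.47 (SE 0.13, adjusted p = 0.0975 from limma). Without replicate 2 at 100 µg/ml the adjusted p from limma was 0.0463. With its far more abundant copies added, the log2 fold change was -0.14. Rpl21, Rpl9, Rpl19 and Rps13 completed the 5 largest positive values, at log2 fold changes of 0.28, 0.26, 0.16 and 0.16, none with an adjusted p under 0.05 in limma. With copies added, Rpl9 was at 0.00, Rps13 at 0.30 and Rpl19 turned to -0.15. Single libraries also set these values. Rpl21 was at 0.18 and Rps13 at 0.00 without replicate 1 at 100 µg/ml, and Rps13 at 0.09 without control replicate 2 and at 0.30 without replicate 2 at 100 µg/ml. Rpl9 was at 0.40 without replicate 2 and at 0.17 without replicate 3 at 100 µg/ml. Rpl19 was at 0.06 without control replicate 3, at 0.29 without replicate 2 and at -0.02 without replicate 3 at 100 µg/ml. Rpl10a, whose libraries did not overlap, also had a log2 difference of 0.16, which was 0.09 without replicate 1 at 100 µg/ml and 0.01 with copies added, where the libraries overlapped.

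The most negative log2 fold change belonged to Rps15a, at -1.29, with an SE of 0.85. It was at 45.2, 38.9 and 357 FPKM in control, 124, 24.2 and 32.7 FPKM at 10 µg/ml, and 45.4, 31.8 and 28.5 FPKM at 100 µg/ml. Control replicate 3 and replicate 1 at 10 µg/ml stood far above the other 7 libraries, and without control replicate 3 the log2 fold change was -0.27.

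By subunit, 27 of 32 small-subunit genes and 27 of 48 large-subunit genes had a log2 fold change below 0 at 100 µg/ml, where the background is 50.4%. The median log2 fold changes were -0.15 and -0.03. After the length and GC correction they were -0.12 and 0.03, and without control replicate 1 and replicate 1 at 100 µg/ml, the libraries that stand apart, -0.19 and -0.08. Over single libraries, the median of all members ranged from -0.19 without replicate 1 at 100 µg/ml to 0.00 without replicate 2 at 100 µg/ml. No test was made of the difference between the subunits.

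With the length and GC correction, 5 members had an adjusted p under 0.05 in limma at 100 µg/ml, Rpl11, Rps25 and Rps28 lower and Rpl23a and Rpl10a higher. This is 6.25% of the members, where 7.38% of all genes passed in either direction, 3.23% higher and 4.16% lower. Without replicate 1 at 100 µg/ml, 7 members were lower, among them Rpl11, Rps28, Rpl27a, Rps3a2, Rps27a and Rpl8, which is 8.75% of the members, where 3.12% of all genes were lower, 1.71% higher and 4.83% passed in either direction. Rpl11 is the member that both lists share with the uncorrected fit of all libraries. The fit without replicate 1 at 100 µg/ml keeps control replicate 1, the other library where short transcripts stood highest. The median log2 fold change of the members in that fit was -0.19, and the share of other short transcripts called is not given. With replicate 1 of both groups left out, no member passed.

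**Figure D5:**
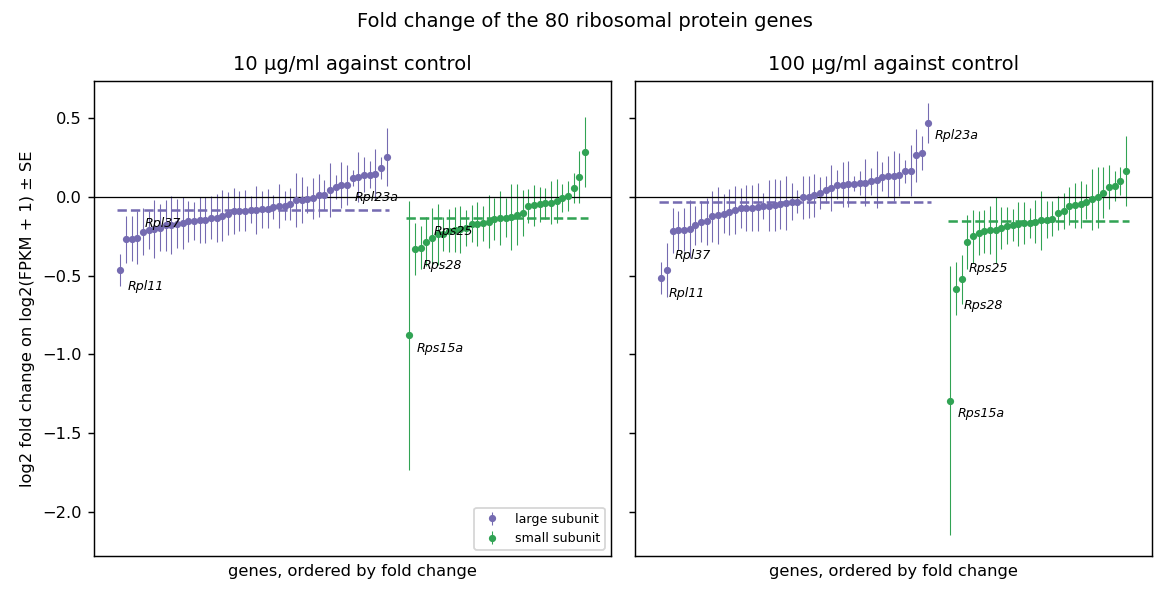
Log2 fold change ± SE of the 80 ribosomal protein genes at 10 µg/ml (left) and 100 µg/ml (right) against control, ordered within each subunit. Dashed lines are medians per subunit, at -0.08 and -0.14 on the left and -0.03 and -0.15 on the right. Rpl11 stands at the low end of the large subunit in both panels, and Rps15a has a wide bar, with an SE of 0.85.

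Between 10 µg/ml MNPs@SiO2(RITC)-treated and control cells, 0 members passed, as 0% of all genes did, by limma's adjusted p. At an unadjusted p under 0.05 there were 4 members (background 3.28%, with 1.74% higher and 1.54% lower), among them Rpl3 and Rpl10a, which were higher, and Rpl11, which was lower. Libraries did not overlap for 3 members that were higher, Rpl3, Rpl10 and Rpl10a (background 6.14%), and for 6 that were lower, among them Rpl11, Rpl17, Rpl27a, Rps6 and Rps27a (background 4.61%). This comparison uses the same control libraries as the one at 100 µg/ml, so values at both doses are not independent.

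The change of Rpl11 at this dose was -0.47 on the log2 scale (SE 0.10, adjusted p = 1 from limma), and -0.22 with copies added. Rpl10a, a large-subunit protein of the L1 stalk, was at 116, 116 and 109 FPKM in control, 125, 127 and 135 FPKM at 10 µg/ml, and 141, 124 and 117 FPKM at 100 µg/ml. All treated libraries were above all control libraries, with a log2 fold change of 0.18 for the 10 µg/ml group. Rpl10a shares 87.1% of its 100-base stretches with other genes, and with its copies added the log2 fold change was 0.05. Rps13, Rpl22l1, Rpl19 and Rpl10 were the other genes among the 5 largest positive values, at 0.28, 0.25, 0.14 and 0.14. Without replicate 1 at 10 µg/ml Rps13 was at 0.03. With copies added, Rpl22l1 and Rpl19 turned to -0.12 and -0.14. Without control replicate 3 they were at 0.10 and 0.03, while Rpl22l1 was at 0.41 without replicate 2 at 10 µg/ml and Rpl19 at 0.22 without control replicate 1. Large negative ones were those of Rps15a (-0.88), Rpl11, Rps28 (-0.33) and Rps25 (-0.29). Without control replicate 3 Rps15a turned to 0.14 and Rps25 was at -0.45. Rps25 was at -0.17 without control replicate 1, and Rps28 at -0.12 with copies added.

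At this dose 63 of 80 members had a log2 fold change below 0, where the background is 49.8%, and the median was -0.11. The other short transcripts had a median of -0.07, and 927 of 1410 of them lay below 0. After the length and GC correction the median of the members was -0.04, with 52 below 0. Without control replicate 1 the median was -0.03.

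Between both doses, 0 members passed in limma, where 0.851% of all genes did (0.215% higher and 0.636% lower), and 3 had an unadjusted p under 0.05 (background 14.3%, with 6.49% higher and 7.80% lower). These were Rpl23a, higher at 100 µg/ml, and Rpl22l1 and Rps3a2, lower. Rpl23a was the member whose libraries did not overlap in the higher direction (background 9.37%, and 9.99% in the lower direction, where there was no member), with a log2 fold change of 0.39 (SE 0.13, adjusted p = 0.216 from limma). Rpl22l1, whose product can take the place of RPL22, was at 4.40, 3.08 and 4.91 FPKM at 10 µg/ml and 3.12, 2.79 and 2.22 FPKM at 100 µg/ml, with a log2 fold change between doses of -0.46 (SE 0.18, adjusted p = 0.305 from limma). The groups overlapped by a single library. With copies added, the difference between doses was 0.04 for Rpl23a, -0.11 for Rpl22l1 and, among the genes that follow, 0.10 for Rpl35. The next positive values were those of Rpl39 and Rpl35 (0.29 each), Rps29 and Rpl9 (0.22 each), and the next negative ones those of Rps15a (-0.41), Rps28 (-0.25), Rps25 (-0.24) and Rps3a2 (-0.22). Single libraries moved all of these. Without replicate 1 at 10 µg/ml Rpl39 was at 0.08, Rps29 at 0.05 and Rps15a turned to 0.29, and without replicate 3 at 10 µg/ml the same genes were at 0.47, 0.36 and -0.66. Rpl9 ranged from 0.08 without replicate 2 to 0.37 without replicate 3 at 10 µg/ml, and Rpl35 was at 0.11 without replicate 1 at 100 µg/ml. Rps28 ranged from -0.42 without replicate 1 to -0.10 without replicate 3 at 100 µg/ml, Rps25 from -0.37 without replicate 1 to -0.15 without replicate 2, and Rps3a2 from -0.33 without replicate 1 to -0.14 without replicate 2 of that group. Rps3a2 had an adjusted p of 0.0399 from limma without replicate 1 at 100 µg/ml.

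What the genes share beyond their name is seen at their starts. RefSeq promoter sequences (GRCm38.p6, 250 bases before to 50 after the start) were matched for 58 members by symbol. An unbroken run of at least 8 pyrimidines within 50 bases of the start, on the sense strand, was present in 48 of the 58 (82.8%), against 35.7% of 7814 tested genes and 38.6% of all 27025 genes in the table. The letters CCGGAAG on either strand, a core that ETS factors bind, were found in 43.1% of members, 23.1% of tested genes and 9.93% of all. The letters AAGATGGC on either strand, a YY1 core, were found in 8.62%, 6.07% and 3.19%. The reverse complement of CCGGAAG begins with pyrimidines and can overlap a run. These matches are descriptions of letters. The windows below show what such a run looks like, in capitals, in members described above. They were picked among genes that hold a run, after their values were seen. Rps28 has a matched promoter without these letters in the window searched. They lie at chr4:136053357-136053386 (minus strand) for Rpl11, chr17:28328572-28328601 for Rpl10a, chr15:5116632-5116661 for Rpl37, chr9:44407684-44407713 for Rps25 and chr4:86857349-86857378 (minus strand) for Rps6.
Rpl11: cggaagTCTCCCTCTCTCTTCCTgttctcc
Rpl10a: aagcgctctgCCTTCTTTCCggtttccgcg
Rpl37: gcgggggtgCTTTCTCTTCCggtctctttg
Rps25: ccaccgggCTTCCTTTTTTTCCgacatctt
Rps6: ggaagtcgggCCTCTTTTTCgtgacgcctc

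The runs are 17 bases long in Rpl11, 14 in Rps25, 11 in Rpl37 and 10 in Rpl10a and Rps6. Relative to the start used, they begin at 14 in Rpl11, 18 in Rpl10a, 29 in Rpl37, -22 in Rps25 and -1 in Rps6. Whether any of these runs is the first part of an mRNA, as a TOP motif is, was not tested. A list of 22 translation factors and ribosome partners, taken as TOP mRNAs outside the members, gave no call by limma's adjusted p at 100 µg/ml against control. Unadjusted p-values were below 0.05 for 2 of the 22, where the background is 19.4%. The median log2 fold change of the 22 was -0.03. Among them Eef1a1, the elongation factor that delivers aminoacyl-tRNA, was at 2986 ± 61.5 FPKM in control and 2759 ± 209 FPKM at 100 µg/ml (SD, n = 3). Npm1, a nucleolar chaperone, was at 1200 ± 116 and 1199 ± 123 FPKM (SD, n = 3). Fau and Eef1b2 had the largest log2 fold changes of this list by size, at -0.18 each.

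Genes that make ribosomes were read against the same background of 2.11% called and 19.4% at an unadjusted p under 0.05. Of 21 genes of ribosomal RNA transcription, 0 passed by limma's adjusted p in the comparison of 100 µg/ml with control, where 8 had an unadjusted p under 0.05, with a median log2 fold change of 0.07. The most abundant of them were Polr2f (101 FPKM) and Polr1d (92.0 FPKM), and Myc (-0.38) and Polr1a (-0.26) had the largest log2 fold changes. Of 67 assembly factors tested, 0 passed by limma's adjusted p and 22 had an unadjusted p under 0.05, with a median of 0.10 and 16 below 0. Ncl was at 970 ± 47.6 and 1007 ± 33.9 FPKM in control and at 100 µg/ml, and Nop56 at 390 ± 6.76 and 445 ± 18.5 FPKM (SD, n = 3). Senp3 and Mdn1 had log2 fold changes of -0.48 and -0.36, each of which came with 1 library far from the others, control replicate 2 at 201 FPKM for Senp3 and replicate 1 at 100 µg/ml at 15.7 FPKM for Mdn1.

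Among 17 import and escort factors, Tsr2, the nuclear chaperone that takes RPS26 from its importin and escorts it to the pre-ribosome, fell (background 1.41% lower). It was at 29.4, 25.3 and 27.1 FPKM in control, 24.1, 23.2 and 25.3 FPKM at 10 µg/ml, and 20.1, 17.7 and 19.0 FPKM at 100 µg/ml. The 100 µg/ml libraries lay below all others, with a log2 fold change of -0.50 against control (SE 0.07, adjusted p = 0.0132 from limma). Without control replicate 1 or replicate 3 at 100 µg/ml the adjusted p from limma was 0.0569 and 0.0521. Tsr2 also lost its call with only the 6 libraries compared. Its client Rps26 was at 339, 298 and 266 FPKM in control and 360, 262 and 257 FPKM at 100 µg/ml, with overlapping groups and a log2 fold change of -0.05.

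Of 31 genes around mTORC1 that were tested, 3 fell at 100 µg/ml (background 1.41% lower). Ddit4 and Sesn2, inhibitors upstream of mTORC1 that respond to stress, and Sesn1, a p53 target of the same family, were all lower. Ddit4 was at 10.7, 11.2 and 11.3 FPKM in control, 13.9, 9.37 and 11.5 FPKM at 10 µg/ml, and 6.0, 4.70 and 5.59 FPKM at 100 µg/ml. Its 100 µg/ml libraries lay below all others, with a log2 fold change of -0.91 (SE 0.13, adjusted p = 0.0132 from limma). Sesn2 had a log2 fold change of -0.62 (SE 0.09, adjusted p = 0.0142 from limma) and Sesn1 of -0.43 (SE 0.06, adjusted p = 0.0123 from limma). These calls too depend on single libraries and on the setting. With only the 6 libraries compared, Sesn1 and Sesn2 lost their calls, while Ddit4 kept its own. Without control replicate 1, 2 or 3 the adjusted p of Ddit4 from limma was 0.0569, 0.0708 and 0.0521. That of Sesn2 from limma was 0.0807 and 0.0532 without control replicate 2 or 3 and 0.0641 without replicate 3 at 100 µg/ml. That of Sesn1 from limma was 0.0627, 0.0543 and 0.0510 without control replicate 1, 2 or 3 and 0.0521 without replicate 3 at 100 µg/ml. Sesn2 and Ddit4 were also lower in the 100 µg/ml than in the 10 µg/ml group, at log2 fold changes of -0.70 (adjusted p = 0.0138 from limma) and -0.96 (adjusted p = 0.0174 from limma).

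Of 23 genes of ribosome quality control and ribosome stress, 0 passed by limma's adjusted p, while 10 had an unadjusted p under 0.05 (background 19.4%). Abce1, which splits ribosomes for recycling, was at 176 ± 0.478 and 176 ± 7.55 FPKM in control and at 100 µg/ml (SD, n = 3), and Eif4e2 at 128 ± 7.66 and 121 ± 3.58 FPKM (SD, n = 3). Zfp622 (0.34) and Eef2k (-0.32), the kinase of elongation factor 2, had the largest log2 fold changes. The 76 mitochondrial ribosomal protein genes gave 0 calls by limma's adjusted p and 12 at an unadjusted p under 0.05 (background 19.4%), with a median log2 fold change of 0.08 at 100 µg/ml and -0.04 at 10 µg/ml. Mrpl20 (120 FPKM) and Mrps21 (117 FPKM) were the most abundant, and Mrpl52 (-0.45) and Mrpl38 (0.43) had the largest log2 fold changes, the latter with replicate 1 at 100 µg/ml far above the rest at 62.7 FPKM. The 80 tested genes of the respiratory chain were chosen by name, with no limit on transcript length. Of these, 2 of 80 fell, where the background is 1.41% lower and 2.11% in either direction, and the median was -0.08. The 2 were Ndufs4 (log2 fold change -0.76, SE 0.12, adjusted p = 0.0196 from limma) and Atp5a1 (log2 fold change -0.37, SE 0.06, adjusted p = 0.0197 from limma). Each lost its call without control replicate 1, at adjusted p-values from limma of 0.0840 and 0.0865, and without control replicate 2, replicate 2 or replicate 3 at 100 µg/ml (0.0926, 0.0642 and 0.0750 for Ndufs4, and 0.0905, 0.0616 and 0.0750 for Atp5a1, from limma), and Atp5a1 also without control replicate 3 (adjusted p = 0.0676 from limma). Both Ndufs4 and Atp5a1 also lost their calls with only the 6 libraries compared, and Atp5a1 with quantile normalization. Of 11 tested genes for RNA quality and library composition, 0 passed by limma's adjusted p, while 4 had an unadjusted p under 0.05 (background 19.4%). Actb was at 2696 ± 78.4 and 2634 ± 119 FPKM (SD, n = 3) and Malat1 at 190 ± 29.6 and 228 ± 37.1 FPKM (SD, n = 3), while Hist1h4i (-0.43) and Hist1h1c (0.34) had the largest log2 fold changes. At 10 µg/ml no gene of any of the 9 lists passed by limma's adjusted p, where 3.28% of all genes had an unadjusted p under 0.05. At that threshold there were 3 of the 17 import and escort factors, 2 of the 31 genes around mTORC1, 1 of the 23 of ribosome quality control, 2 of the 76 mitochondrial ribosomal protein genes, 3 of the 80 of the respiratory chain and none of the other lists. Between both doses, Sesn2 and Ddit4 were the genes of these lists that passed.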

How the data were processed

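RNA of 9 BV2 libraries was enriched for poly(A) tails with oligo(dT) beads. After removal of poor reads, the authors ran TopHat and deposited FPKM values from Cufflinks 2.1.1 on Ensembl release 77, with corrections for fragment bias and multi-mapping reads. Counts are not part of the files used here. Steps between low FPKM values gave an approximate depth of 12.0 to 14.9 M fragments per library. For each library the depth was the one that brought these values closest to whole numbers of fragments. At that depth 78.1% of 3592 low values were whole numbers to within 0.25. The 50% of chance holds for a fixed depth, not for one fitted to the same values.

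Genes were grouped by the treatment in the labels. log2(FPKM + 1) of the 11161 genes that average 1 FPKM or more was tested with limma 3.58.1 (R 4.3.3; lmFit, eBayes with trend, the 3 groups in one fit, Benjamini-Hochberg adjustment over all genes tested). On this scale the change of low genes is understated. In a simulation of 100 µg/ml against control with 200 of 11161 genes changed, 0% were called at a log2 change of 0.3, 68% at 0.6 and 89% at 1. The changed genes were drawn from all genes tested, and each gene varied independently. Members vary more within groups than all genes tested and moved together between libraries, so these shares do not hold for members alone. How many genes changed in the data themselves is not known. Transcript lengths, GC content, shared sequence and biotypes came from GENCODE M21, and all 80 members had a length. Of the 80, 48 have identical coordinates there. Python 3.11.15 with numpy 2.4.6 and pandas 2.3.3 made the tables.

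The members, the 9 pathway lists and the 6 marker lists were chosen with earlier results of these data known. Members were named by rule when past the adjusted threshold or listed at 0 in a library, among the 6 highest or lowest levels or the 5 largest changes in each direction of a comparison, and as paralogs, ubiquitin fusions, stalk proteins, Rpsa, Rpl41 and Rps6. Members counted by an unadjusted p, by libraries that do not overlap or under another setting, and Rps26, were named after their values were seen. In each list, called genes were named, or else the 2 most abundant and the 2 with the largest change. Alternatives were pseudocounts of 0.1 and 0.01, no filter, a filter at 5 FPKM, quantile and median-of-ratios scaling, a replicate block, eBayes without trend, only the 6 libraries compared, each library left out, and a loess correction (span 0.5) for length and GC, also with the block. Adding copies, adding them with the correction, and leaving out replicate 1 of control and of 100 µg/ml together were chosen after seeing the data. Cuffdiff was not rerun. A few named genes and a sequence are not reported here, while counts and medians include all members.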

Additional observations from a re-analysis of the deposited data

How the results depend on the processing

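At 100 µg/ml against control, the number of members called (1, Rpl11) was 0 with no filter on low values, with the replicate block, without the trend of eBayes, with only the 6 libraries compared, with copies added and without replicate 1 of control and of 100 µg/ml, and 5 with the loess correction, 4 with the block and the correction, and 4 with copies and the correction. Over single libraries left out it ranged from 0 to 7. Of all genes, 236 were called, and 106 with the replicate block, 22 with only the 6 libraries, 824 with the correction, 415 with block and correction, 820 with copies and correction, and 31 to 539 over single libraries left out. At 10 µg/ml against control, where 0 genes were called, there were 4 with no filter, 1 with only the 6 libraries, 2 without both replicates 1, and 0 to 2 over single libraries left out, none of them a member in any of these. Between doses, 95 genes were called, and 13 with the block, 6 with only the 6 libraries, 356 with the correction, 171 with block and correction, 362 with copies and correction, and 8 to 191 over single libraries left out, while members called were 0, 1 with the correction (Rps3a2), 3 with copies and correction (among them Rpl11 and Rps3a2), and 0 to 1 over single libraries left out. The log2 fold change of Rpl23a at 100 µg/ml, 0.47, reversed to -0.14 with copies added and to -0.0502 with copies and correction. That of Rpl19 reversed from 0.16 to -0.154 and -0.132 under the same settings, and ranged from -0.0175 without replicate 3 at 100 µg/ml to 0.3002 without replicate 1 of control and of 100 µg/ml. At 10 µg/ml against control, Rpl19 reversed from 0.14 to -0.144 with copies added and -0.0891 with copies and correction, Rpl22l1 from 0.25 to -0.124 with copies added, Rps28 from -0.33 to 0.0222 with copies and correction, and Rps15a, at -0.88, ranged from -1.58 without replicate 1 at 10 µg/ml to 0.141 without control replicate 3. Between doses, Rps15a, at -0.41, ranged from -0.866 without replicate 2 to 0.286 without replicate 1 at 10 µg/ml. The causes were not tested. Of the 6 pathway genes called at 100 µg/ml, Ddit4 kept its call with only the 6 libraries compared, while Tsr2, Sesn1, Sesn2, Ndufs4 and Atp5a1 did not, and Atp5a1 also lost it with quantile normalization and with the block. Rpl22l1 has no value with the filter at 5 FPKM. The replicate numbers share no stated origin, and the correlations of same-numbered libraries ranged from -0.09 to 0.15, so the replicate block is given here only; same-numbered libraries did not deviate together in every pair. The median log2 fold changes of the members are smaller than the spread between libraries. Over single libraries left out they ranged from -0.19 to 0.00 at 100 µg/ml, from -0.15 to -0.03 at 10 µg/ml and from -0.09 to 0.10 between doses, where the median turned from 0.03 (33 of 80 below 0) to -0.09 (61 below 0) without replicate 1 of control and of 100 µg/ml. Summed FPKM of the members moved by less than the spread under quantile and median-of-ratios scaling, the correction and single libraries left out. With copies added, the sum was 29755, 27043 and 26916 FPKM on average in control cells and at the low and the high dose, far above that of the members alone. In the simulation, which used the settings of the main comparison, no change of 0.3 on the log2 scale was called. Changes of that size were thus mostly out of reach in the simulation, and other group sizes or numbers of changed genes were not simulated. The part of reads shared with copies in the level of single genes was not tested.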
